A study of Mus musculus with 4 samples.

Results

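The Rab GTPases are the largest branch of the Ras superfamily, and the mouse genes for them were followed here through a list of the sites bound by arginine-methylated Pontin in starved fibroblasts. The members were the protein-coding genes of the GENCODE vM21 annotation whose symbol is Rab followed by a digit and which encode a Rab GTPase. Of 69 candidate symbols, 8 were left out as genes for Rab-binding proteins (Rab11fip1 to Rab11fip5, Rab3gap1, Rab3gap2 and Rab5if), and Rab3il1 and Rab3ip were left out because they do not encode GTPases. This gave 59 Rab genes of the 21938 protein-coding genes on chromosomes 1 to 19, X and Y.

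Rab proteins switch between a GDP-bound and a GTP-bound form. Guanine nucleotide exchange factors (GEFs) load GTP, GTPase-activating proteins (GAPs) return the protein to the GDP form, and GDP dissociation inhibitors (GDIs) carry the GDP form through the cytosol. In the GTP form a Rab sits on particular membrane compartments and recruits effectors that move, tether or fuse vesicles. Several of these compartments feed autophagy, in which a cell encloses its own cytoplasm in a membrane and passes it to the lysosome, for instance when glucose is short.

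The study profiled chromatin of mouse embryonic fibroblasts (MEFs), the connective tissue cells grown from mouse embryos, by chromatin immunoprecipitation and sequencing (ChIP-seq). The antibody recognised Pontin, an ATPase that works in chromatin-modifying complexes, in its arginine-methylated form. The 4 libraries were a ChIP and an input (chromatin sequenced without the antibody) from wild-type MEFs in normal media, and the same pair from wild-type MEFs in glucose starvation media, 1 library each with no further replicate. Values of 1 library were used here, the ChIP under glucose starvation. They come from a list of 4311 peaks of 481 bp each, called over a control input, and the sources used here do not say whether that input came from normal or starved cells. The library held 20765512 mapped tags, of which 0.65% lay in peaks. A level in starved cells was therefore not compared with one in fed cells, no test over samples could be made, and the intervals below cover counting error only. For a share of genes the interval treats each gene as an independent draw, which genes of the same family need not be. Expression was not measured in these libraries, so the cell type was taken from the labels.

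A Rab gene was said to have a promoter peak when the centre of a peak lay within 2.5 kb of any of its annotated transcription start sites (TSSs). By this rule 21 of the 59 Rab genes had a promoter peak, or 35.6% (Wilson 95% interval 24.6% to 48.3%). Among the 21879 other protein-coding genes, 3726 had one, or 17.0% (16.5% to 17.5%). Each of the 21 Rab genes had exactly 1 promoter peak and no peak was shared between Rab genes. In order of tag count they were Rab8a, Rab24, Rab31, Rab13, Rab2a, Rab34, Rab11a, Rab14, Rab33b, Rab25, Rab7, Rab5c, Rab10, Rab6a, Rab21, Rab11b, Rab29, Rab1a, Rab5a, Rab22a and Rab28. The other 38 Rab genes had no peak of the list within the limit, which says only that nothing there passed the thresholds of the peak caller. The caller used a threshold of 18 tags and required 4-fold over input.

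The sequences under the peaks are shown for 8 of these genes, namely the 3 with the highest tag counts and Rab11a, Rab33b, Rab7, Rab1a and Rab5a, which have textbook roles in autophagy or endosomal traffic. Each is 120 bases from within the peak that carry no annotated untranslated region, taken from the GRCm38 (mm10) genome and written 5′ to 3′ on the strand of the Rab gene. Capitals mark a match on either strand to one of the 7-base motifs described further on, and a sequence without capitals has none.

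Rab8a, chr8:72161661-72161780, plus strand: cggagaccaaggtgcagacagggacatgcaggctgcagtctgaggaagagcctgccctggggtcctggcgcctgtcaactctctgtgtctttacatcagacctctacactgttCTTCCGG
Rab24, chr13:55322310-55322429, minus strand: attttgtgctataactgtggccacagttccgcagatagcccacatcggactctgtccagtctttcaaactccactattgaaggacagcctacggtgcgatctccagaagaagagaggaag
Rab31, chr17:65772799-65772918, minus strand: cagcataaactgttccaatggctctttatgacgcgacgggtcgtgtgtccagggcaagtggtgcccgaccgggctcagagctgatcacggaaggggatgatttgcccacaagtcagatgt
Rab11a, chr9:64737763-64737882, minus strand: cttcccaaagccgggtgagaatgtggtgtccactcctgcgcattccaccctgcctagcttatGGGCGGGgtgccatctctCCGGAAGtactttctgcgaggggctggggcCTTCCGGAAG
Rab33b, chr3:51483721-51483840, plus strand: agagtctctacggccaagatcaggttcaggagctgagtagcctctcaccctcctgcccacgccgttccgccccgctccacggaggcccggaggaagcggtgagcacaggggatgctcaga
Rab7, chr6:88045536-88045655, minus strand: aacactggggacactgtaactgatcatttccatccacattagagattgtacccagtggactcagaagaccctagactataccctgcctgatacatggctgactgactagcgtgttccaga
Rab1a, chr11:20200729-20200848, plus strand: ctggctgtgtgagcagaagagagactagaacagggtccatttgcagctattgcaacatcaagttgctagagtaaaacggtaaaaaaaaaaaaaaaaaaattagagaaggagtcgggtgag
Rab5a, chr17:53478335-53478454, plus strand: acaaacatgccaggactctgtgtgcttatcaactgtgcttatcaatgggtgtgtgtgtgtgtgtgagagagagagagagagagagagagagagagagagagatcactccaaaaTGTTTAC

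The stretches differ in composition. The Rab33b stretch has a GC content of 65% and 8 CpG dinucleotides, and the Rab11a stretch one of 61.7% and 6 CpGs. The Rab1a stretch has a GC content of 40%, with 2 CpGs and a run of A, and the Rab5a stretch has 45%, no CpG and a long repeat of GT and GA. Rab peaks thus included both CpG-rich promoter sequence and repeat-bearing sequence further upstream.

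Peaks in this list lie mostly at GC-rich promoters, so the count of Rab genes was set beside that of other genes of like base composition. Promoter GC content was measured over 500 bp on each side of the gene's 5′ end. Its median was 59.7% over all 59 Rab genes, 63.3% over the 21 with a promoter peak and 56.9% over the 38 without. The same medians in the other genes were 58.5% with and 53.6% without a peak. When the share of the other genes was taken in classes of 5 percentage points of GC and weighted by the Rab genes in each class, it came to 22.2%, which corresponds to 13.1 of 59 genes, against the 21 counted. The lower bound for the Rab genes, 24.6%, lay above this share, which describes the count and is no test. Rab genes below 45% GC numbered 1, without a peak. Between 45% and 55% GC, 4 of 12 Rab genes had a peak (33.3%, interval 13.8% to 60.9%) and 14.4% of other genes did. Between 55% and 65% GC the numbers were closest, 11 of 36 Rab genes (30.6%, 18.0% to 46.9%) and 24.5% of others. Within this class the Rab share was below that of others from 55% to 60%, 4 of 18 (22.2%) against 23.7%. From 60% to 65% it was above, 7 of 18 (38.9%) against 25.6%. At 65% GC or more, 6 of 10 Rab genes (60%, 31.3% to 83.2%) and 23.5% of others had a peak. The interval of the Rab genes included the share of the other genes in the classes from 45% to 55% and from 55% to 65%, and lay above it in the class of 65% or more.

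**Figure D1:**
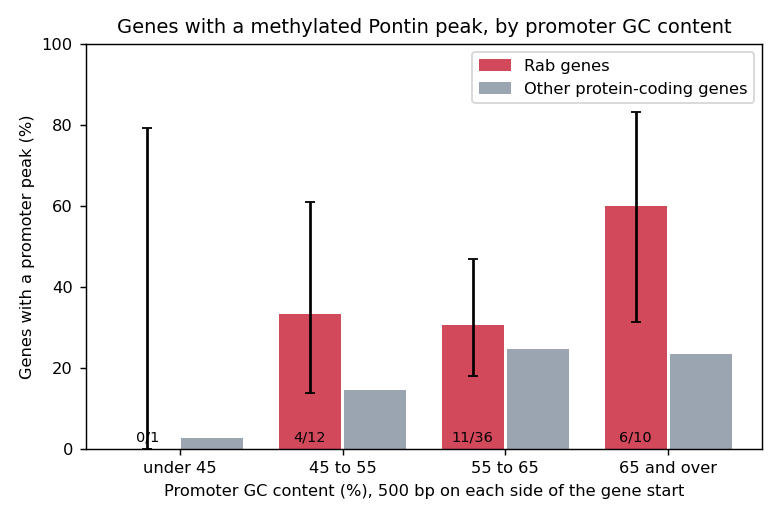
Share of genes with a promoter peak (y axis, percent) in classes of promoter GC content (x axis, percent) for Rab genes (red bars, Wilson 95% intervals as error bars, counts printed at the foot) and for other protein-coding genes (grey bars). The Rab share is above that of other genes in the 3 classes drawn from 45% upward. In narrower classes it is not, with 4 of 18 Rab genes (22.2%) against 23.7% of others from 55% to 60%. The intervals are wide because the classes hold 12, 36 and 10 Rab genes.

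CpG content followed the same order. The ratio of observed to expected CpG at the promoter had a median of 0.778 in Rab genes with a peak and 0.600 in those without, and of 0.756 and 0.454 in the other genes. The number of distinct TSSs, which sets how many positions a peak may be near, had a median of 4 in Rab genes both with and without a peak. In the other genes the medians were 5 with and 3 without a peak.

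The height of the Rab peaks was ordinary for promoter peaks. Height is given as tags per 10000000 mapped tags, the normalised tag count of the deposited list. The 21 Rab peaks had a lowest value of 10.6, a median of 14.7 and a highest of 21.9, with an interquartile range of 12.5 to 16.6. The 3192 promoter peaks of other protein-coding genes had a median of 14.9, an interquartile range of 12.5 to 17.8 and a highest value of 34.2. Of the Rab peaks, 10 lay above the median of the others. In tags actually sequenced the Rab peaks held 22.0 to 45.5, with a median of 30.5. At this depth an exact Poisson 95% interval spans much of the range, and for 20 of the 21 peaks it included the Rab median, with Rab8a as the exception. None of the 210 pairs of Rab peaks had intervals that were apart, although the highest was 2.07 times the lowest. The order of the genes by tag count is therefore a description and not a ranking that this depth resolves.

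**Figure D2:**
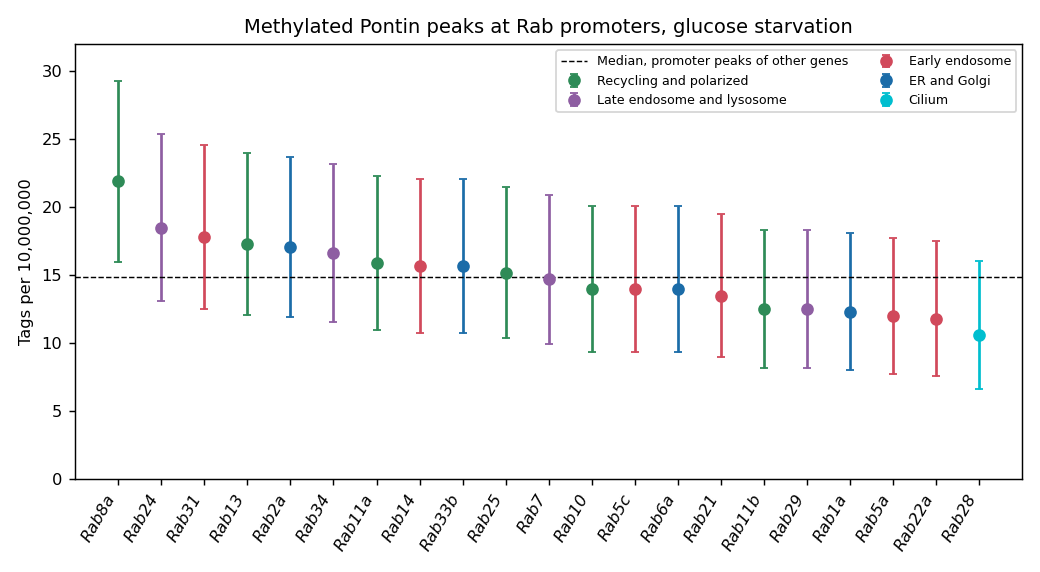
Normalised tag count (y axis, tags per 10000000 mapped tags) of the promoter peak of each of the 21 Rab genes (x axis), coloured by the compartment each Rab is best known for, with exact Poisson 95% intervals as error bars. The values run from 21.9 at Rab8a to 10.6 at Rab28, all intervals overlap one another, and the dashed line is the median of the promoter peaks of other genes, 14.9.

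Rab8a, which moves exocytic vesicles to the plasma membrane and the base of the cilium, had the highest peak of the family. The peak spanned chr8:72161352-72161832 in an intron of Rab8a (chr8:72161200-72183904, plus strand), with its centre 392 bp downstream of the gene's 5′ end. It held 21.9 tags per 10000000 (16.0 to 29.3), was 9.45-fold over input (Poisson p of the peak caller 4.16e-18) and 5.56-fold over the surrounding 10 kb. Chromosome 8 had the highest median peak height of the chromosomes, 18.5, and Rab8a stood at 1.18 times that median, higher than 73.8% of the peaks of chromosome 8 and 93.2% of all peaks.

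Rab24, an atypical Rab found on autophagosomes, had the next highest peak, chr13:55322130-55322610. Its tag count was 18.5 (13.1 to 25.3), its fold over input 6.85 and its Poisson p 4.46e-12. The centre lay 424 bp upstream of Rab24 (chr13:55319743-55321946, minus strand) and inside an intron of the divergent neighbour Prelid1, whose TSS was nearer at 351 bp. To which of these promoters the peak belongs cannot be told apart by distance alone.

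Rab31, an endosomal relative of Rab5 that works between the Golgi and early endosomes, had 17.8 tags per 10000000 (12.5 to 24.5) at chr17:65772619-65773099. This was 23.4-fold over input (p 1.48e-23), and the centre lay 107 bp upstream of the gene (chr17:65651729-65772752, minus strand). Rab13, which serves delivery to cell junctions, had 17.3 (12.1 to 24.0) at chr3:90213261-90213741 and 14.9-fold over input, p 1.59e-18. Its centre was 194 bp upstream of Rab13 (chr3:90213695-90226385, plus strand) but only 122 bp from a TSS of Rps27, a ribosomal protein gene. Both genes thus had a tag count above the upper quartile of the Rab peaks, and one of them shared its promoter region with another gene.

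Rab2a, a Rab of the early secretory pathway that also takes part in fusion of autophagosomes with lysosomes, had 17.1 tags per 10000000 (11.9 to 23.7) in chr4:8535567-8536047. This peak was 22.1-fold over input (p 3.42e-22) and 7.03-fold over its surroundings, and its centre lay in a UTR exon, 163 bp downstream of the start of Rab2a (chr4:8535644-8607778, plus strand). Rab34, which positions lysosomes and takes part in forming cilia, had 16.6 (11.5 to 23.1) in chr11:78188293-78188773. Its fold over input was lower, 8.60 (p 4.12e-13), with the centre in an intron 93 bp downstream of the nearest TSS of Rab34 (chr11:78188430-78192193, plus strand).

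Rab11a, the defining Rab of recycling endosomes, had 15.9 tags per 10000000 (10.9 to 22.3) at chr9:64737659-64738139, 20.6-fold over input with p 1.59e-19. The centre lay 141 bp upstream of Rab11a (chr9:64715299-64737758, minus strand). Rab14, which works between the Golgi and endosomes, had 15.7 (10.8 to 22.1) at chr2:35200627-35201107. It had the highest fold over input of the Rab peaks, 40.5 (p 2.38e-25), with the centre in a UTR exon 253 bp downstream of the 5′ end of Rab14 (chr2:35180205-35201120, minus strand). Rab11b, the close relative of Rab11a, stood at 12.5 (8.16 to 18.3) and 4.05-fold, the lowest fold of the Rab peaks.

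Rab33b, a Golgi Rab that binds the autophagy protein Atg16l1, had the same tag count as Rab14, 15.7 (10.8 to 22.1), at chr3:51483541-51484021. Its fold over input was 4.50 (p 6.72e-08), and the centre lay 139 bp upstream of Rab33b (chr3:51483920-51496232, plus strand). Equal tag counts in the ChIP thus went with folds of 40.5 and 4.50, a difference that lies in the input.

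Rab25, an epithelial relative of Rab11a, closes the list of the 10 highest peaks with 15.2 tags per 10000000 (10.4 to 21.5) at chr3:88541664-88542144, 4.36-fold over input with p 3.02e-07. It is the gene nearest to the distance limit from inside. The centre lay 1610 bp from the TSS of a retained-intron transcript of Rab25, 6396 bp from the gene's 5′ end and 125 bp beyond its 3′ end (chr3:88542029-88548300, minus strand). Just outside the limit stood Rab27a, with a peak 4.67 kb away that was nearest to Pigb, and Rab42, with a peak 4.87 kb away that was nearest to Snhg12.

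Rab7, which drives fusion of late endosomes and autophagosomes with lysosomes, had 14.7 tags per 10000000 (9.96 to 20.9) at chr6:88045356-88045836. The fold over input was 4.75 (p 5.16e-08) and the centre lay 326 bp upstream of Rab7 (chr6:87999106-88045270, minus strand). Rab1a, which acts from the endoplasmic reticulum (ER) to the Golgi and in autophagosome formation, had 12.3 (8.0 to 18.1) at chr11:20200549-20201029, 10.6-fold over input with p 8.24e-11, 643 bp upstream of the gene (chr11:20201432-20226856, plus strand). Rab5a, the Rab of early endosome fusion, had 12.0 (7.76 to 17.7) at chr17:53478130-53478610, 5.19-fold over input with p 6.7e-07, 864 bp upstream (chr17:53479234-53507680, plus strand). Leaving Rab25 aside, the Rab5a peak was the farthest from a TSS of its gene.

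The remaining Rab peaks had 14.0 tags per 10000000 or fewer. Rab5c (endosome fusion), Rab10 (exocytosis, including that of the glucose transporter of fat cells) and Rab6a (retrograde traffic at the Golgi) each had 14.0 (9.38 to 20.1), with folds over input of 6.02, 6.02 and 36.1. Rab21, an endocytic Rab for integrins, had 13.5, and Rab29, a binding partner of the kinase Lrrk2, had 12.5. Rab22a, another early endosomal Rab, had 11.8 and 30.5-fold over input, and Rab28, known from cilia and photoreceptors, had 10.6 and 6.85-fold.

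The fold over input separated the Rab peaks more than the tag count did. It ran from 4.05 to 40.5 with a median of 8.60, beside a median of 9.10 for other promoter peaks. Below 8-fold stood 10 Rab peaks and at or above it 11, beside 1853 of the 3192 other promoter peaks at or above it. Of the 11 Rab peaks 6 reached at least 20-fold, a count with no share of other peaks beside it. The deposited list also holds each peak's tag number brought to input depth, a column separate from the normalised tag count. Dividing these by the fold returns the input tags the caller set against the peak, and for all 21 Rab peaks and all 3192 other promoter peaks the quotient lay within 0.05 of a multiple of 0.5. Rab14, Rab6a and Rab22a had a quotient of 0.5, and Rab31, Rab2a, Rab11a and Rab29 one of 1, so 7 of 21 Rab peaks (33.3%) had an input of at most 1, beside 28.4% of other promoter peaks. Rab33b and Rab25 had 4.5, the highest of the Rab peaks. A high fold at a Rab gene therefore rests on very few input tags, and the fold of 40.5 at Rab14 is no more precise than those tags.

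**Figure D3:**
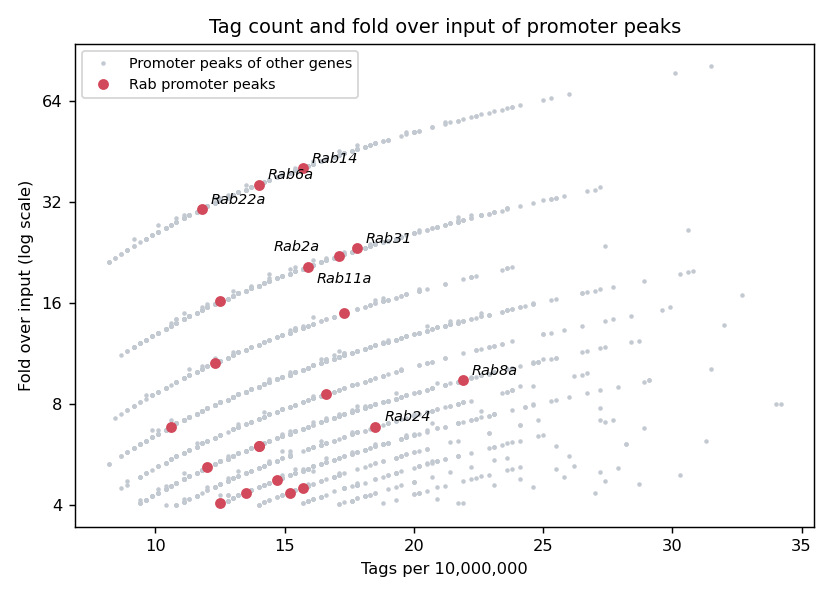
Normalised tag count (x axis, tags per 10000000 mapped tags) against fold over input (y axis, log scale) for the promoter peaks of other protein-coding genes (small grey points) and of Rab genes (large red points, with those of at least 20-fold and the 2 of highest tag count named). The points fall on separate curves, 1 for each step of 0.5 in input tags, and the 6 Rab peaks of at least 20-fold lie on the 2 uppermost curves, at inputs of 0.5 and 1.

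Height over the surrounding 10 kb varied little, from 4.15 to 7.86 with a median of 4.85 in Rab peaks and 5.01 in the others. Rab5c with 7.86, Rab2a with 7.03 and Rab6a with 6.71 stood highest over their surroundings. The last of these lies on chromosome 7, where the median peak is low at 11.6, and Rab6a was above 81.3% of the peaks of that chromosome. Relative to its own chromosome's median, the peak was higher for 13 of the 21 Rab genes. The same share was not counted for other promoter peaks, so this is not read as a trait of the Rab peaks.

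The Rab peaks lay close to the start sites. The distance from peak centre to nearest TSS of the Rab gene had a median of 233 bp, beside 252 bp for the others. Within 250 bp lay 11 of 21 (52.4%, others 49.8%), within 500 bp 17 (81.0%, others 80.5%) and within 1 kb 20 (95.2%, others 96.4%). Of the Rab peaks 14 had their centre upstream and 7 downstream (33.3%, interval 17.2% to 54.6%), whereas 48.2% of the other peaks were downstream, a share inside that interval. Counted from the gene's 5′ end, which moves Rab14 to the downstream side, 13 were upstream and 8 downstream. By annotation of the Rab gene itself, the centre was in a UTR exon in 4 (Rab2a, Rab14, Rab29 and Rab22a), in an intron in 3 (Rab8a, Rab34 and Rab5c) and outside the gene in 14.

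**Figure D4:**
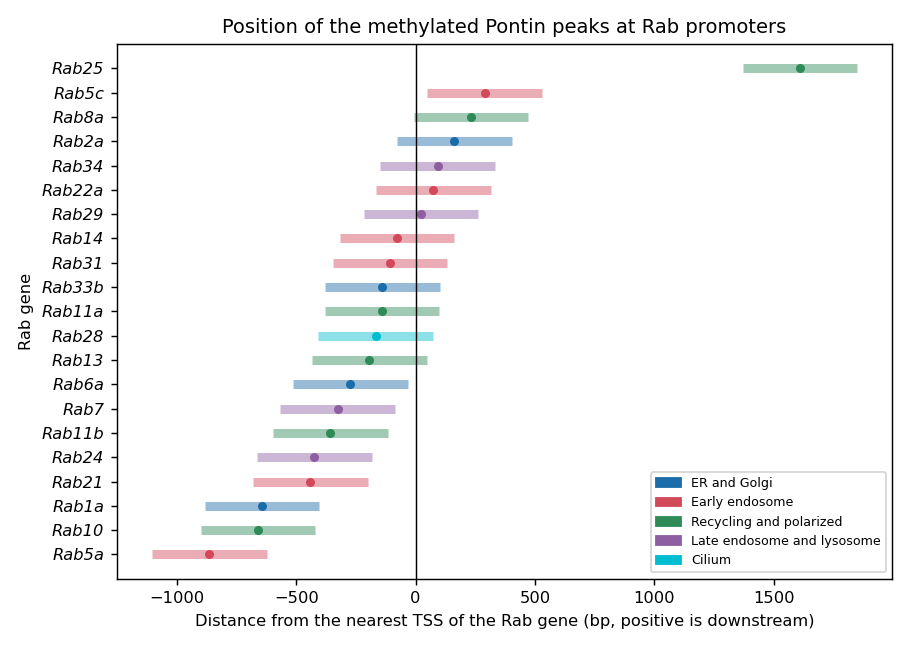
Position of each Rab peak relative to the nearest TSS of its gene (x axis, bp, negative values upstream), with the gene on the y axis, the peak of 481 bp as a bar and its centre as a point, coloured by compartment. Of the 21 centres 17 lie within 500 bp, with Rab10, Rab1a and Rab5a farther upstream and Rab25 at 1610 bp downstream.

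A promoter peak can belong to a neighbour. For 18 of the 21 genes the nearest TSS of any gene was that of the Rab gene, and for Rab24, Rab13 and Rab21 it was that of Prelid1, Rps27 and the noncoding Gm10752. In 8 cases another gene started within 2.5 kb of the centre, and in 3 of these it was protein-coding, namely Prelid1 at Rab24, Rps27 at Rab13 and Mrpl48 at Rab6a. When only peaks nearest to the counted gene were taken, 18 of 59 Rab genes (30.5%) and 13.4% of the other genes had one, and 17.3% of the others at the Rab genes' GC content.

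Arranged by the compartment for which each Rab is best known, the peaks fell unevenly, though several of these proteins act at more than one. The groups were made by hand with earlier results of these data known, so contrasts between them are no test. Early endosomal Rabs had a peak in 6 of 10 (60%, interval 31.3% to 83.2%), with Rab5a, Rab5c, Rab14, Rab21, Rab22a and Rab31 against Rab5b, Rab4a, Rab4b and Rab20 without. Recycling and polarised-traffic Rabs had one in 6 of 11 (54.5%, 28.0% to 78.7%), which were Rab8a, Rab10, Rab11a, Rab11b, Rab13 and Rab25. Other genes at the GC content of these groups had shares of 24.8% and 22.5%, both below the lower bounds. Late endosomal and lysosomal Rabs had one in 4 of 8 (50.0%, 21.5% to 78.5%; Rab7, Rab24, Rab29 and Rab34), and the ER and Golgi group in 4 of 12 (33.3%, 13.8% to 60.9%; Rab1a, Rab2a, Rab6a and Rab33b), with 21.7% and 21.8% in other genes. Of the pair acting at the cilium, Rab28 had a peak and Rab23 did not. Outside the early endosomal and recycling groups, the share of other genes lay inside the interval of each group.

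None of the 9 Rabs of regulated secretion had a promoter peak (Wilson upper bound 29.9%). These are Rab3a, Rab3b, Rab3c, Rab3d, Rab26, Rab27a, Rab27b, Rab37 and Rab44, most of them known from neurons, glands and blood cells. At their promoter GC content other genes had a share of 19.5%, or 1.76 genes of 9, so that share lies inside the interval of the 9 genes. No peak was found either for the 5 Rabs placed in no group (Rab39, Rab39b, Rab40b, Rab40c and Rab42), for which the share of other genes comes to 1.10 genes, or for Rab32 and Rab38 of lysosome-related organelles.

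**Figure D5:**
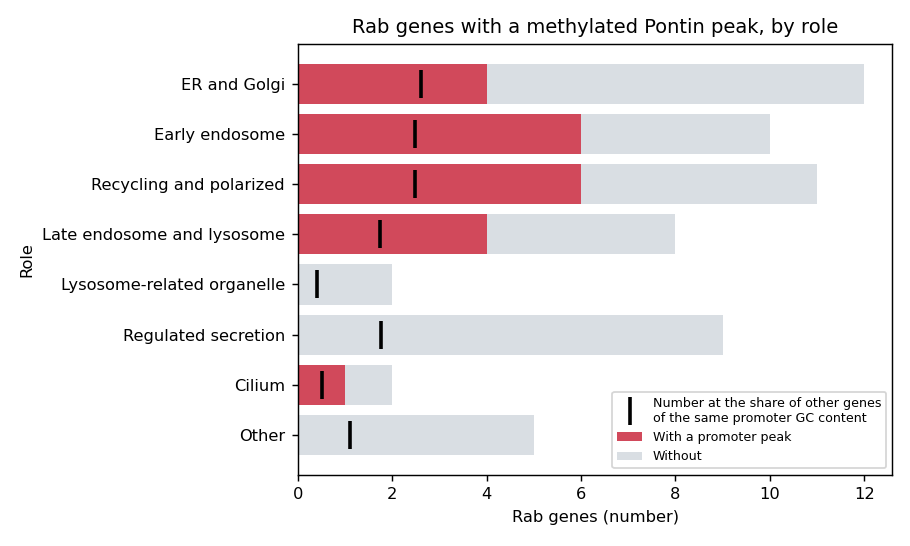
Number of Rab genes (x axis) in each compartment group (y axis), with a promoter peak in red and without in grey. Black ticks mark the number at the share of other genes of the same promoter GC content, and the 3 groups without red, of 9, 5 and 2 genes, have no peak.

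Close relatives did not always have the same result. Of 14 numbered families with more than 1 member (31 genes, 10 of them with a peak), 7 had a peak at some members only, 1 at every member (Rab11a and Rab11b) and 6 at none (Rab3, Rab4, Rab9, Rab27, Rab39 and Rab40). The divided families were Rab1a without Rab1b, Rab2a without Rab2b, Rab5a and Rab5c without Rab5b, Rab6a without Rab6b, Rab7 without Rab7b, Rab8a without Rab8b and Rab33b without Rab33a. Promoter GC content was higher in the member with the peak for Rab1a (69.9% against 57.2%), Rab7 (64.2% against 53.0%), Rab8a (64.7% against 61.4%) and Rab33b (63.6% against 59.0%). It was lower for Rab6a (59.0% against 66.8%) and about equal for Rab2a (63.3% against 63.7%), and in the Rab5 family Rab5b at 62.8% lay between Rab5c at 59.9% and Rab5a at 67.0%. The part of base composition in these differences was not tested. Of the 28 Rabs with no numbered relative in the list, 11 had a peak. Beside these counts stand shares of 35.6% over all Rab genes and 17.0% over other protein-coding genes. How many families would be divided at the overall Rab share was not tested, so the split is not read as a trait of the relatives.

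Rab genes with textbook roles in autophagy, the lysosome or endosomal traffic were on both sides. Of a list of 11 such genes 6 had a promoter peak (54.5%, interval 28.0% to 78.7%), beside 24.2% of other genes at their GC content. They were Rab1a, Rab5a, Rab7, Rab11a, Rab24 and Rab33b. The list was chosen by hand with earlier results known and leaves out other Rabs with lysosomal roles, such as Rab2a, Rab29 and Rab34 with a peak and Rab7b and Rab36 without. Among its members, Rab5a and Rab20 are placed in the early endosomal group and Rab11a and Rab12 in the recycling group. Other members of those groups were left out, such as Rab14 and Rab10 with a peak and Rab4a and Rab35 without. For the genes of the list without a promoter peak the nearest peak lay 18.1 kb away for Rab20, 65.2 kb for Rab1b, 209 kb for Rab9, 377 kb for Rab12 and 592 kb for Rab32. Over all 38 Rab genes without a promoter peak the nearest peak was 4.67 kb to 6.37 Mb away, with a median of 64.8 kb. It was under 10 kb in 2, from 10 to 100 kb in 22 and over 100 kb in 14. A search of all 59 Rab genes from end to end found 0 peaks centred inside a gene and beyond 2.5 kb of its TSSs. Of the 4311 peaks of the list, 3213 were promoter peaks of a protein-coding gene. No values for other genes stand beside this search or these distances, so neither is read as a trait of the Rab genes.

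The motifs searched were 8 sequences of 7 bases, on both strands of the 481 bp peaks, each the core of a site known for a transcription factor. A match describes letters in this window and is no evidence of binding. The FOXO3a core GTAAACA was in 1 Rab peak (4.76%) and in 4.39% of the 3192 other promoter peaks. The Rab peak is that of Rab5a, where it ends the stretch printed above as TGTTTAC, the reverse complement, at position -783 from the TSS. The TFEB core TCACGTG, of a regulator of lysosomal genes, was in 1 Rab peak, that of Rab31 (others 6.33%), and the CREB1 core TGACGTC in 1, that of Rab14 (others 4.32%). Both lie in a UTR exon and are shown here in 30 bases of GRCm38 on the gene's strand, with the match in capitals.

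Rab31, chr17:65772683-65772712, minus strand: gccggccggcagCACGTGAccgacagcgga
Rab14, chr2:35200793-35200822, minus strand: gcttcctcgtccTGACGTCcccctcccgtc

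The Sp/KLF core GGGCGGG was the most frequent, in 6 Rab peaks (28.6%; Rab2a, Rab11a, Rab22a, Rab28, Rab29 and Rab33b) and in 33.5% of the others. The ETS core CCGGAAG was in 4 (19.0%; Rab2a, Rab8a, Rab11a and Rab14; others 18.7%), and the YY1 core ATGGCGG in 4 (Rab13, Rab14, Rab22a and Rab28; others 12.0%). Rab11a held 4 ETS matches, of which an overlapping pair forms the palindrome that ends its printed stretch. The E2F1 core GCGGGAA and the NRF1 core GCATGCG were in none of the 21 (Wilson upper bound 15.5%), with 11.4% and 5.51% in the others. This depends on the window: within 500 bp on each side of the peak centre they were in 3 and 2 of the 21, beside 637 and 388 of the 3192 others. In all 11 Rab peaks held at least 1 of the 8 motifs and 10 held none, among them those of Rab1a, Rab7, Rab10 and Rab24. The share of other promoter peaks with any of the 8 was not counted, so these counts are not read as a trait of the Rab peaks.

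The other genes of the Rab cycle had promoter peaks at a share near that of genes of like GC content. A list of 115 GEFs, GAPs, GDI and prenylation genes and effectors was counted by the same rule, of which 114 were found in the annotation. A promoter peak was present for 28 (24.6%, 17.6% to 33.2%), beside 21.9% of other genes at their GC content, a share inside the interval. For 24 of the 28 the nearest TSS was their own.

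In the group of GDI and prenylation genes, with which Rabif was also listed, 3 of 8 had a peak (37.5%, other genes at their GC content 21.0%). These were Gdi2 with 18.8 tags per 10000000, Rabggtb, a subunit of the Rab prenyltransferase, with 18.5 and Rabif with 20.7. The peak at Rabggtb was nearer to Gm43400. Of 33 GEF genes 6 had a peak (18.2%, other genes at their GC content 22.6%). They were Rabgef1, the exchange factor of Rab5, with 17.3, and Ccz1, a subunit of that of Rab7, with 15.4. Dennd6b had 15.7, Dennd1a 13.7, Rgp1 12.0 and Hps1 10.4. Of 33 GAP genes 9 had a peak (27.3%, other genes at their GC content 22.5%), with values from 11.6 at Tbc1d14 to 24.1 at Rabgap1. The others were Tbc1d2, Tbc1d5, Tbc1d9b, Tbc1d12, Usp6nl, Sgsm2 and Sgsm3, and the peaks at Rabgap1 and Sgsm2 were nearer to Zbtb26 and Tsr1.

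Of 40 effector genes 10 had a peak (25%, other genes at their GC content 21.1%). In each of these classes of the Rab cycle the share of other genes lay inside the Wilson interval of the class. Eea1, the early endosome tether that binds Rab5, had 13.2 and 34.3-fold over input. Pik3c3 and Pik3r4, the catalytic and a regulatory subunit of the lipid kinase that acts in endosomes and in autophagy, had 20.2 and 17.8. Vps39 and Vps41, subunits of the tether that works with Rab7, had 14.7 and 14.4, and Fyco1, which links Rab7 to microtubule transport, had 12.5. The remaining ones were Rabep2, Golga2, Gcc2 and Osbpl1a, and the peak at Golga2 was nearer to Swi5.

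The count of Rab genes depends on how strict a peak must be. With peaks of at least 8-fold over input 11 of 59 Rab genes (18.6%) kept one, beside 9.90% of other genes and 12.9% at the same GC content, and this last share lies inside the Rab interval of 10.7% to 30.4%. Among the 2155 highest-scoring of the 4311 peaks it was 10 Rab genes (16.9%, 9.48% to 28.5%), and the share of other genes at the same GC content, 12.5%, again lies inside the interval.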

How the data were processed

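Per the labels, methylated Pontin ChIP and input libraries came from wild-type MEFs in normal or glucose starvation media. The authors aligned paired reads to GRCm38/mm10 with Bowtie2 and called peaks with HOMER 4.7.2 against control input, at a false discovery rate of 0.001, 4-fold over input and over the surrounding 10 kb. The deposited list, of the starved ChIP alone, gives for each peak a normalised tag signal per 10000000 tags, a score, a fraction for how narrowly the tags lie, fold ratios over input and surroundings, and p-values. A column of control tags (1) was not assigned to a library and not used.

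Peak centres were related to GENCODE vM21 TSSs, and GC content and motifs were read from GRCm38, with Python 3.11.15, pandas 2.3.3, pysam 0.24.0 and SciPy 1.17.1. The counting steps were tested on simulated data. The Rab genes, the compartment groups, the 115 Rab-cycle genes and the motifs were chosen with earlier results of these data known. All Rab genes with a promoter peak are named. The 10 highest, the listed autophagy, lysosome and endosomal genes and those nearest the 2.5 kb limit have fuller values. Alternatives were other distances, TSS sets, stricter peaks, GC windows and motif windows. With 1 library, no test over samples was made.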

Additional observations from a re-analysis of the deposited data

How the results depend on the processing

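No paired analysis was possible because only a single library stands for a condition. The share of Rab genes with a promoter peak was 33.9% at a limit of 1 kb, with only the gene's 5′ end and with protein-coding transcripts, where Rab25 is lost, and 39.0% at 5 kb. The share of other genes was 16.1% at 1 kb, 18.1% at 5 kb, 15.6% with the gene's 5′ end and 13.4% with only peaks nearest to the counted gene, an alternative chosen after seeing the data. With peaks of at least 8-fold over input, 11 Rab genes (18.6%) had one, beside 9.90% of others and 12.9% at the Rab genes' GC content. Among the 2155 highest-scoring peaks it was 10 (16.9%), beside 9.55% and 12.5%, and the median tag count of the Rab peaks was 16.9. In both, where fewer peaks are kept by construction, the share at the Rab genes' GC content lies inside the Rab interval. Other GC windows, GC classes and classes that also use CpG content or TSS number, of which the CpG classes were added after seeing the data, gave 21.4% to 22.2% for other genes at the Rab genes' GC content, and the other distances and TSS sets 20.8% to 23.4%. The FOXO3a match is lost at 8-fold (0 of 11 peaks, other promoter peaks 4.48%). In the central 200 bp the TFEB match is lost (0 of 21, other promoter peaks 1.69%). ETS is left there in 4.76% (other promoter peaks 5.29%). Within 500 bp of the centre TFEB was in 3 of 21, E2F1 in 3 and NRF1 in 2. Among the 3192 other promoter peaks they were in 382, 637 and 388. At 8-fold ETS was in 36.4% (4 of 11, Wilson interval 15.2% to 64.6%). The share of other promoter peaks at 8-fold, 18.6%, lies inside this interval. The depth of 22.0 to 45.5 tags a peak does not resolve the order of the Rab peaks.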

Other observations

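None of the 4 Rab genes on chromosome X (Rab9, Rab9b, Rab33a and Rab39b) had a promoter peak. Among the 944 other protein-coding genes of chromosome X the share was 3.60%, and over all other protein-coding genes it was 17.0%. Rab33a was also the Rab gene farthest from any peak, at 6.37 Mb.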
